A study of Mus musculus with 12 samples.

Results

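The genes described here are markers of macrophages and dendritic cells, the phagocytes and antigen-presenting cells of the gut wall, measured in the ileum of 12 mice. They were chosen by name as Csf1r, Cx3cr1, Itgax, Itgam, Cd14, Mrc1, Cd163, Cybb, Marco and Emr1, and 9 of these 10 had values among the 556 genes with values, while Mrc1 was not analysed here. All mice were male C57BL/6 mice sampled at week 7, and RNA came from the terminal ileum, with 3 mice in each of 4 groups. SPF control mice carried a specific pathogen-free microbiota and received no antibiotic. SPF PAT mice carried the same type of microbiota and had received a single pulsed antibiotic treatment (PAT) as pups, through their nursing dams. The drug was tylosin, a macrolide antibiotic, in autoclaved drinking water. GF control mice were germ-free without tylosin, and GF PAT mice were germ-free with it. The litters and cages of these mice are not given in the sources used here, so the p-values measure the spread between mice and cannot separate it from a shared litter.

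Macrophages of the intestinal lamina propria are replenished largely from blood monocytes and depend on signalling through the receptor encoded by Csf1r. As monocytes settle they gain Cx3cr1, Emr1 (now named Adgre1, the F4/80 antigen) and, in resident cells, the scavenger receptor Cd163. Itgam and Itgax encode the integrin chains CD11b and CD11c, which are shared by monocytes, macrophages and dendritic cells, and CD11b is also carried by neutrophils and natural killer cells. Cybb encodes the catalytic subunit of the phagocyte NADPH oxidase, and it is also active in B cells and neutrophils.

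The values are log2 normalized counts from a NanoString nCounter panel, which counts reporter probes, and 1 unit is a doubling. The total recovered count was 600308 to 923395 per mouse. Counts of the markers ranged from 64 (Cd163) to 952 (Cybb), except for Marco, which had 7 to 37 counts per mouse and a counting error of up to 0.545 log2 units. Levels are not compared between genes, because probes differ in efficiency. Epithelial markers of the ileum (4 measured) summed to 80255 to 167893 normalized counts per mouse. Members of the lists for these and other tissue cells moved in both directions. Of all genes 42.1% were called between SPF control and GF control mice, and so were 2 of 4 epithelial markers (Mme at -2.31, and Pigr at 0.77, which did not pass after median centring or quantile normalization), 1 of 4 endothelial (Cdh5 at -0.77, in a list running to 0.51 for Vcam1), 1 of 3 stromal (Pdgfrb at -0.80, in a list running to 0.20 for Thy1) and 1 of 3 mast cell and eosinophil markers (Kit at -0.80, in a list running to 1.01 for Fcer1a). Between SPF PAT and SPF control mice, where 26.3% were called, 1 of 4 epithelial markers was called (Mme at 1.14, with Pigr at -0.59), 0 of 4 endothelial (-0.39 to 0.42), 1 of 3 stromal (Pdgfrb at 0.76, with Thy1 at -0.27) and 1 of 3 mast cell and eosinophil markers (Kit at 0.70, with Fcer1a at -0.78). The part of these cells in the marker differences was not tested. Summed B cell markers (5 of 5 measured, none at 0 in every mouse) differed widely between mice of a group. Their normalized counts were 4479, 5320 and 362 in SPF control mice 2, 7 and 8 and 4620, 197 and 130 in SPF PAT mice 21, 26 and 27. In the germ-free mice they were 2665, 347 and 105 in GF control mice 37, 38 and 39, and 4490, 2560 and 1156 in GF PAT mice 41, 42 and 43. For the called markers, values with this sum as a covariate and without single mice are given beside the results they touch.

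In ileum of mice that had received no antibiotic, SPF control mice had higher Itgam and Cybb and lower Cd163 than GF control mice. Itgam was 2.40-fold and Cybb 1.77-fold higher with a microbiota, and Cd163 was 2.03-fold lower. These 3 of 9 markers passed the test (limma, adjusted p under 0.05 over 556 genes), against 42.1% of all genes, so the share of markers called was not above that of the panel. Of the markers 2 rose, where 19.4% of all genes did, and 1 fell, where 22.7% did. The groups did not overlap for these 3 markers, nor for 52.2% of all genes. The other 6 did not pass. Over the 9 markers the median difference was 0.32 log2 units, against 0.08 over all genes, and 7 were positive. In bulk tissue, fewer cells of a type and less RNA per cell cannot be told apart, here and in each result that follows.

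Itgam, the alpha chain of complement receptor 3 that binds iC3b and ICAM-1, was 9.07, 8.41 and 9.18 in SPF control mice 2, 7 and 8. It was 7.37, 7.59 and 7.91 in GF control mice 37, 38 and 39. Every SPF control mouse lay above every GF control mouse, with a gap from 7.91 to 8.41. The means were 8.88 ± 0.41 and 7.62 ± 0.27 (SD, n = 3 each), a difference of 1.26 (standard error 0.28, 95% interval 0.62 to 1.90, adjusted p = 0.00629 in limma). The call was present in all 12 fits that left out a mouse, and with the summed B cell markers as a covariate, a fit chosen after seeing the data, the difference was 1.55 (adjusted p = 0.000488). With the methods' Tukey HSD the adjusted p was 0.0491 by Benjamini-Hochberg, but 0.338 by Benjamini-Yekutieli. The call was also lost when each mouse was centred on its median, where the difference was 0.82 (adjusted p = 0.116).

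Cybb was 9.48, 9.57 and 8.93 in SPF control mice 2, 7 and 8 and 8.76, 8.19 and 8.55 in GF control mice 37, 38 and 39. The groups did not overlap, but SPF control mouse 8, the one with few B cell markers, lay nearest to the GF control range. The difference was 0.83 (standard error 0.27, 95% interval 0.22 to 1.43, adjusted p = 0.0322). It was 0.55 with the summed B cell markers as a covariate (adjusted p = 0.0378) and 0.39 after median centring (adjusted p = 0.137). Without SPF control mouse 2 the adjusted p was 0.0987, without SPF control mouse 7 it was 0.111, without GF control mouse 38 it was 0.119 and without GF control mouse 39 it was 0.0666. With the methods' Tukey HSD under Benjamini-Hochberg adjustment it was 0.182, and with counts scaled to the total it was 0.0735.

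Cd163, the receptor for haptoglobin-haemoglobin complexes, ran the other way. It was 5.86, 5.70 and 6.65 in SPF control mice 2, 7 and 8 and 6.79, 6.94 and 7.54 in GF control mice 37, 38 and 39. Every GF control mouse lay above every SPF control mouse, although SPF control mouse 8 came close to GF control mouse 37. The difference, SPF control minus GF control, was -1.02 (standard error 0.31, 95% interval -1.71 to -0.34, adjusted p = 0.0229). With the summed B cell markers as a covariate it was -0.73 (adjusted p = 0.0312). The call was lost without SPF control mouse 2 (adjusted p = 0.0803), without SPF control mouse 7 (0.0892) and without GF control mouse 39 (0.083). It was also lost with only these groups in the fit (0.0569) and with the methods' Tukey HSD under Benjamini-Hochberg (0.144) and Benjamini-Yekutieli adjustment (0.991).

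The promoters of these 3 markers are shown because they were the ones called between SPF control and GF control mice. Each is the 250 bases before the annotated start, read from RefSeq on GRCm38.p6 and written 5′ to 3′ along the gene's strand. Capitals mark GAGGAA or its reverse complement TTCCTC, a core bound by PU.1, the transcription factor of the myeloid lineage. The Itgam window is at chr7:128062390-128062639 on the plus strand, that of Cd163 at chr6:124304401-124304650 on the plus strand and that of Cybb at chrX:9469325-9469574 on the minus strand.
Itgam: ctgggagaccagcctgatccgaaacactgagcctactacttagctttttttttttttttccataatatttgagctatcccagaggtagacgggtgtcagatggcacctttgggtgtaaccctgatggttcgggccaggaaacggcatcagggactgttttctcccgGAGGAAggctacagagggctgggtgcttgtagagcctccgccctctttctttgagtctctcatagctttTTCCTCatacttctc
Cd163: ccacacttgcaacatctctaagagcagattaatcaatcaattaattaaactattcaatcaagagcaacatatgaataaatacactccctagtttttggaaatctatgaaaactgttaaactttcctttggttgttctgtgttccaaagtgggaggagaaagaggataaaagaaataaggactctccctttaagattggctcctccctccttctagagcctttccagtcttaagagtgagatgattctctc
Cybb: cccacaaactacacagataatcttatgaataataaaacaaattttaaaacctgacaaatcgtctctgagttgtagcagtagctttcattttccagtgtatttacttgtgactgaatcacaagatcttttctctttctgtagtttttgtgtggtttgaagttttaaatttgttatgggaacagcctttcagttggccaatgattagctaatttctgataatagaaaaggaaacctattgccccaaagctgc
The Itgam window held 2 matches, and those of Cd163 and Cybb held 0. Of the windows of the 6 markers searched, that of Marco held 1 match, and those of Cx3cr1 and Itgax held 0. The windows of Csf1r, Cd14 and Emr1 were not searched. Among 32851 windows of the same length, 23.3% held at least 1 match and 3.5% held at least 2. A match is a string of letters and was not tested for binding. Only this string and its reverse complement were searched. A window with 0 matches, such as that of Cybb, is therefore not shown to lack a PU.1 site of another form.

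**Figure D1:**
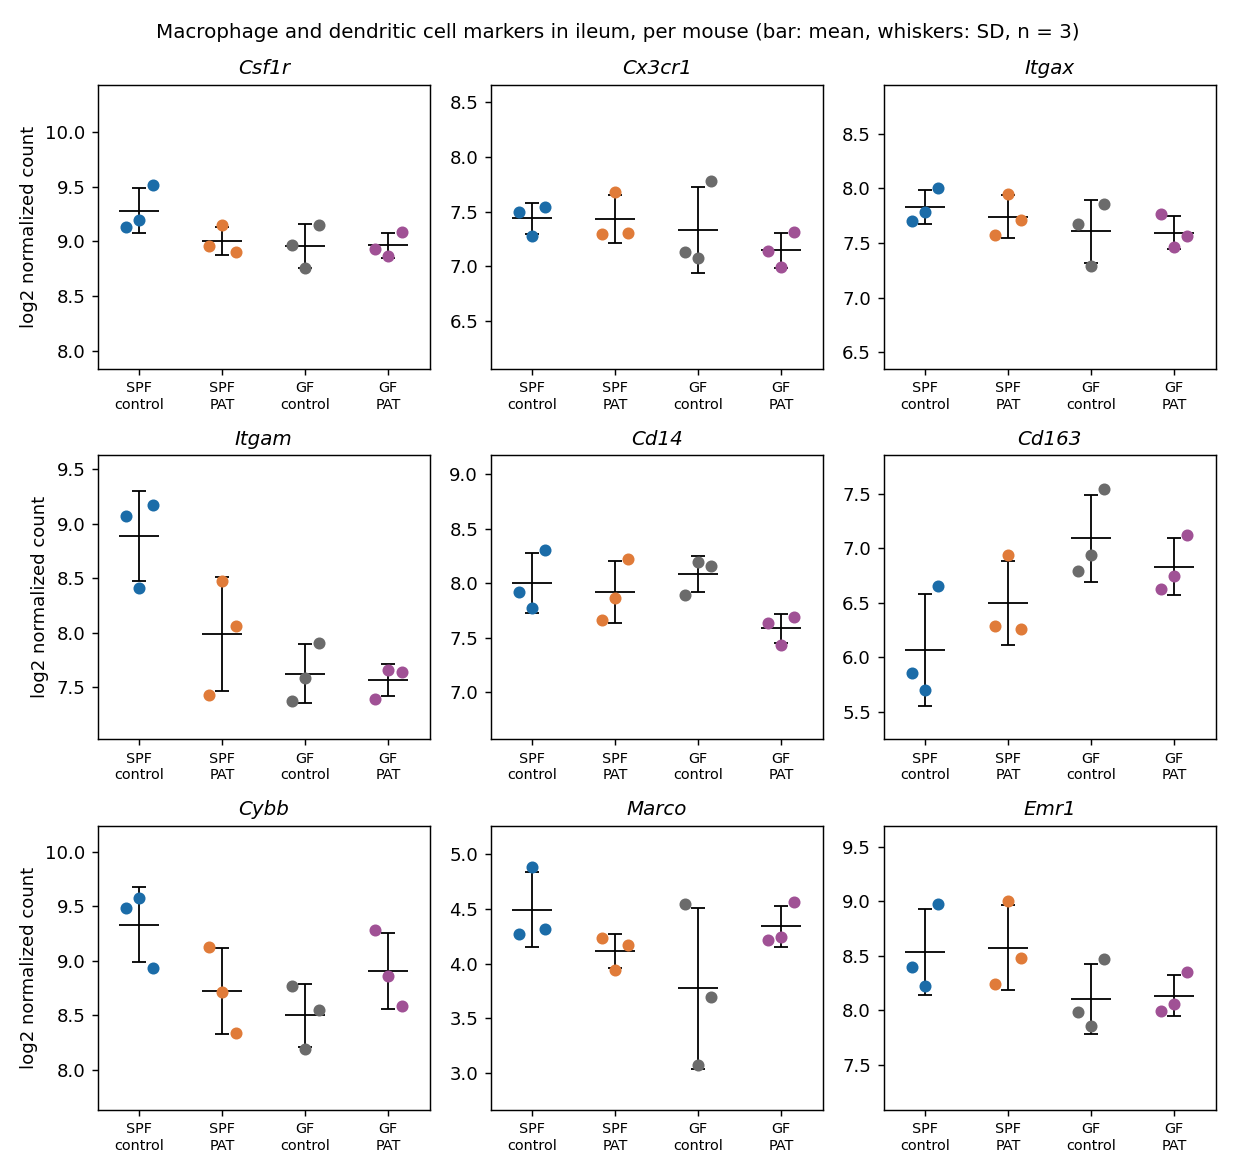
Log2 normalized counts of the 9 markers in each of 12 mice, by group, with the group mean as a bar and the SD (n = 3) as whiskers. The vertical axis of each panel spans the same number of log2 units. For Itgam the 3 SPF control mice sit between 8.41 and 9.18 and the GF control mice between 7.37 and 7.91.

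The remaining 6 markers did not pass the test between SPF control and GF control mice. Csf1r, the receptor for the growth factors CSF1 and IL-34, was 9.13, 9.20 and 9.51 in SPF control and 8.96, 8.75 and 9.15 in GF control mice. These groups overlapped by a single pair of mice, and the difference was 0.32 (95% interval -0.01 to 0.66, adjusted p = 0.103). Marco, a scavenger receptor of some macrophages, had a difference of 0.72 (95% interval -0.01 to 1.45, adjusted p = 0.0995), at counts of 7 to 37, and without GF control mouse 37 it was 1.11 (adjusted p = 0.00786). Emr1 differed by 0.43 (95% interval -0.16 to 1.01, adjusted p = 0.208) and Itgax by 0.22 (95% interval -0.17 to 0.61, adjusted p = 0.312). For Cx3cr1, the receptor for the chemokine CX3CL1, the difference was 0.11 (95% interval -0.35 to 0.56, adjusted p = 0.686). For Cd14, the co-receptor that hands lipopolysaccharide to TLR4, it was -0.08 (95% interval -0.50 to 0.33, adjusted p = 0.74). With each mouse centred on its median, the difference over all genes shifted by -0.44 and the signs of Csf1r, Cx3cr1, Itgax and Emr1 turned, so their directions depended on the scaling. With the summed B cell markers as a covariate, Csf1r (0.41, adjusted p = 0.0413) and Emr1 (0.68, adjusted p = 0.0196) passed.

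In mice with a microbiota, early tylosin exposure went with lower Itgam at week 7. Itgam was 1.86-fold lower in SPF PAT than in SPF control mice and was the 1 marker of 9 that passed the test, against 26.3% of all genes (12.2% in this direction). The other 8 did not pass. The median over the 9 markers was -0.09 log2 units, against -0.02 over all genes, and 7 of 9 were negative. This comparison uses the same SPF control mice as the one with GF control mice, so a chance deviation in them enters both with opposite sign.

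Itgam was 7.43, 8.47 and 8.06 in SPF PAT mice 21, 26 and 27. Their mean was 7.99 ± 0.52 (SD, n = 3), and SPF PAT mouse 26 lay just above SPF control mouse 7, at 8.41, so the groups overlapped. The difference was -0.90 (standard error 0.28, 95% interval -1.53 to -0.26, adjusted p = 0.044). It ran from -1.14 to -0.62 over the 12 fits that left out a mouse. The call was lost in 9 of these fits, and it passed only without SPF control mouse 7 (adjusted p = 0.0326), without SPF PAT mouse 26 (0.0306) or without GF control mouse 37 (0.049). It was also lost with only these groups in the fit (adjusted p = 0.128), with the methods' Tukey HSD under Benjamini-Hochberg (0.228) and Benjamini-Yekutieli adjustment, with quantile normalization (0.105) and after median centring (-0.54, adjusted p = 0.316). With the summed B cell markers as a covariate the difference was -1.18 (adjusted p = 0.00432).

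Cybb was 9.13, 8.71 and 8.34 in SPF PAT mice 21, 26 and 27, and the highest of these lay above SPF control mouse 8. Its difference was -0.60 (95% interval -1.21 to 0.00, adjusted p = 0.119), and -0.34 with the B cell covariate (adjusted p = 0.198). Without SPF PAT mouse 21 it was -0.80 and passed (adjusted p = 0.047). Cd163 was 6.29, 6.94 and 6.26 in these mice, within or above the SPF control range of 5.70 to 6.65, with a difference of 0.43 (95% interval -0.26 to 1.11, adjusted p = 0.303). Csf1r was 8.95, 9.15 and 8.90, and its difference was -0.28 (95% interval -0.61 to 0.05, adjusted p = 0.183). The 3 SPF PAT mice lay below the 3 SPF control mice for Marco, at 3.94 to 4.23 against 4.27 to 4.89, where 41% of all genes did not overlap between these groups and the difference of -0.38 did not pass (adjusted p = 0.383). Emr1, Cx3cr1, Cd14 and Itgax differed by 0.04, -0.01, -0.08 and -0.09 (adjusted p = 0.912, 0.979, 0.741 and 0.709). Their 95% intervals reached at most 0.63 above 0 and 0.54 below it.

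**Figure D2:**
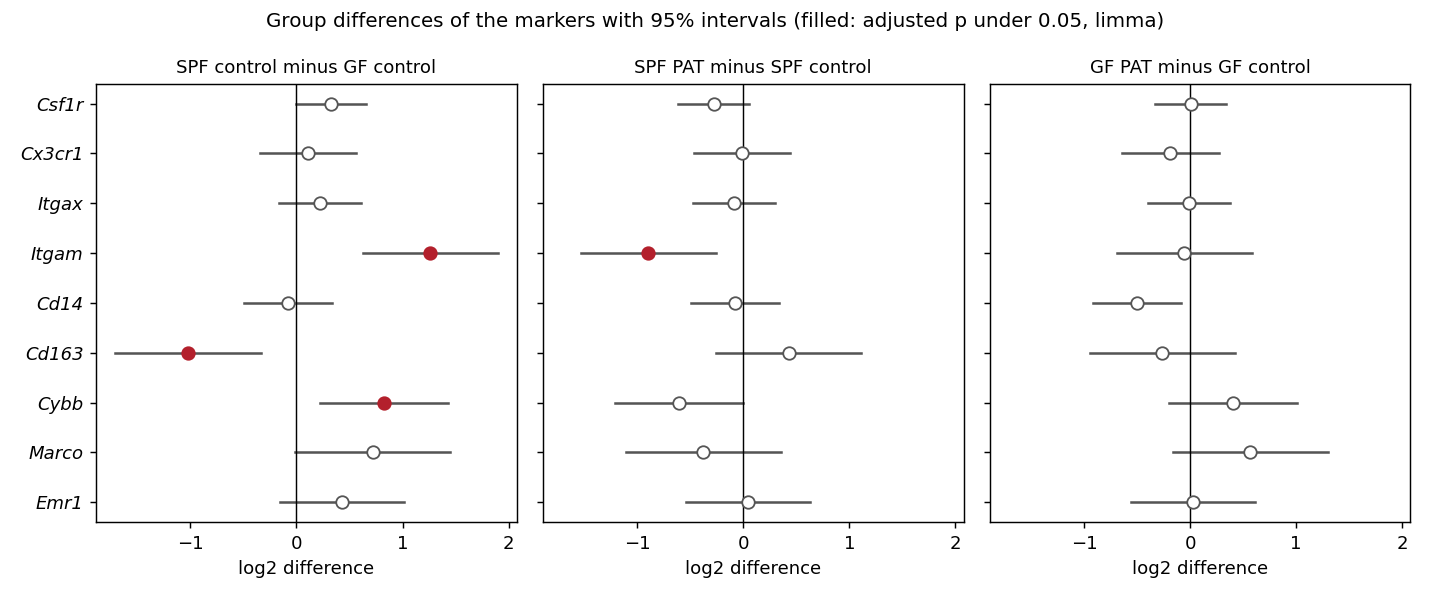
Log2 differences of the 9 markers in 3 comparisons, with 95% intervals from limma, where filled points have an adjusted p under 0.05. Itgam, Cybb and Cd163 are filled in the panel of SPF control minus GF control, Itgam is filled between SPF PAT and SPF control mice, and none is filled between GF PAT and GF control mice.

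In germ-free mice, none of the 9 markers passed the test between GF PAT and GF control mice. Among the 556 genes, 0% were called by limma in this comparison, and 5.04% had an unadjusted p under 0.05. Among the markers 1 had such a p, Cd14, which was 7.63, 7.44 and 7.69 in GF PAT mice 41, 42 and 43 and 7.89, 8.19 and 8.16 in GF control mice 37, 38 and 39. The GF PAT mice all lay below the GF control mice for Cd14, and 12.1% of all genes likewise had groups without overlap. The difference was -0.50 (standard error 0.19, unadjusted p = 0.0236, adjusted p = 0.693), and -0.30 with the B cell covariate. Itgam was 7.40, 7.66 and 7.64 in GF PAT mice, inside the GF control range, with a difference of -0.06 (95% interval -0.69 to 0.58). Cybb was 9.28, 8.86 and 8.59 in GF PAT mice, with a difference of 0.41 (95% interval -0.20 to 1.01, adjusted p = 0.693), and Marco differed by 0.57 (95% interval -0.16 to 1.30, adjusted p = 0.693). The median over the markers was -0.01 log2 units, against -0.004 over all genes.

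Whether tylosin acted differently with and without a microbiota was tested as the difference between the effects in SPF and in GF mice. No marker of 9 passed, against 17.1% of all genes, and 1 of 9 had an unadjusted p under 0.05, against 37.9%. That marker was Cybb, which was lower after tylosin in SPF mice and higher in GF mice, with a difference between the effects of -1.01 (standard error 0.38, unadjusted p = 0.0252, adjusted p = 0.087). Without SPF PAT mouse 21 it was -1.21 (adjusted p = 0.0376), without SPF control mouse 8 it was -1.21 (adjusted p = 0.0449), and with the B cell covariate it was -0.44 (adjusted p = 0.367). For Itgam the difference between the effects was -0.84 (standard error 0.40, adjusted p = 0.146), and with the B cell covariate it was -1.44 (adjusted p = 0.0285). For Marco it was -0.94 (adjusted p = 0.149), and without GF control mouse 37 it was -1.33 (adjusted p = 0.0308).

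SPF PAT mice were also set against the germ-free groups. No marker passed against GF control mice, where 2.16% of all genes did, or against GF PAT mice, where 1.44% did, and none had an unadjusted p under 0.05, where 11% and 10.1% of all genes did. Itgam in SPF PAT mice differed by 0.37 from GF control mice (adjusted p = 0.712) and by 0.42 from GF PAT mice (95% interval -0.22 to 1.06). For Cd163 the difference from GF control mice was -0.59 (95% interval -1.28 to 0.09). These intervals still hold differences of about a doubling, so the groups are not shown to be alike.

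Itgam and Itgax are neighbouring genes on chromosome 7 and encode alpha chains that pair with the same beta chain, CD18. Their within-mouse ratio, a measure chosen after their values were seen, does not depend on how a mouse was scaled. On the log2 scale it was 1.36, 0.63 and 1.17 in SPF control mice 2, 7 and 8 and -0.30, 0.30 and 0.05 in GF control mice 37, 38 and 39. It was -0.13, 0.52 and 0.35 in SPF PAT mice 21, 26 and 27 and -0.36, 0.20 and 0.08 in GF PAT mice 41, 42 and 43. The SPF control mice lay above all the other mice. The difference was 1.04 between SPF control and GF control mice and -0.81 between SPF PAT and SPF control mice, each with an exact permutation p of 0.1 (two-sided), the smallest that 3 mice against 3 allow, so that the test could not pass and the values are a description. Both comparisons use the same SPF control mice. Between GF PAT and GF control mice it was -0.04 (exact permutation p = 0.8).

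CD11b is also a protein of neutrophils and natural killer cells, whose markers were therefore set beside it. Of 7 neutrophil markers 5 were measured, none of them at 0 in every mouse. Between SPF control and GF control mice 3 of these 5 rose, against 19.4% of all genes, and between SPF PAT and SPF control mice 2 fell, against 12.2%. Their summed normalized counts were 74.4 to 131 in SPF control mice, 33.6 to 56.7 in SPF PAT, 23.4 to 47.0 in GF control and 37.3 to 68.6 in GF PAT mice. The calprotectin genes S100a8 and S100a9 differed between SPF control and GF control mice by 1.70 (adjusted p = 0.0243) and 2.36 (adjusted p = 0.00212), and Csf3r, the receptor for the granulocyte growth factor, by 1.02 (adjusted p = 0.0162). Camp and Cxcr2, the other measured neutrophil markers, did not pass, at -0.09 (adjusted p = 0.917) and 1.15 (adjusted p = 0.268). Between SPF PAT and SPF control mice S100a8 fell by 2.04 and S100a9 fell by 1.67 on the log2 scale (adjusted p = 0.019 each), at counts of 4 to 65. In that comparison Csf3r was at -0.73 (adjusted p = 0.0786) and Cxcr2 at -0.58 (0.588). Camp ran the other way, at 0.89 (0.304), and none of these passed. After median centring the adjusted p of the falls of S100a8 and S100a9 was 0.0595 and 0.0558, and of the rises that of S100a9 alone passed. Natural killer cell markers summed to 230 to 263 in SPF control mice, 133 to 218 in SPF PAT, 107 to 137 in GF control and 124 to 137 in GF PAT mice. Of the 3 measured, only Klrd1 passed. It differed by 1.33 between SPF control and GF control mice (adjusted p = 0.00251), where 42.1% of all genes were called. Between SPF PAT and SPF control mice, where 26.3% were called, it differed by -0.77 (adjusted p = 0.044). Klrk1 (adjusted p = 0.0533 and 0.214) and Eomes (0.45 and 0.443) did not pass in these 2 comparisons. The fall of Klrd1 was lost after median centring (-0.41, adjusted p = 0.175), quantile normalization (-0.37, adjusted p = 0.172) and scaling to total count (-0.73, adjusted p = 0.0744), and with the B cell covariate (-0.54, adjusted p = 0.0545). The part of these cells in the Itgam differences was not tested.

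Mice of the same group differed from one another in a shared way for several of the markers. SPF control mouse 8, SPF PAT mouse 26 and GF control mouse 39 lay above their group's mean for all 5 of Csf1r, Cx3cr1, Itgax, Itgam and Emr1, while SPF control mouse 7, SPF PAT mouse 21 and GF control mouse 38 lay below it for all 5. No GF PAT mouse did either, as mice 41, 42 and 43 lay above the mean for 1, 1 and 4 of the 5. Across the 12 mice, the 10 pairs of these 5 genes had Pearson correlations of 0.59 to 0.81, and of 0.45 to 0.89 between deviations from the group means. Cd163 also lay above its group's mean in mice 8, 26 and 39 and below it in mice 7, 21 and 38. Its deviations had correlations of 0.60 (Itgax) to 0.96 (Emr1) with those of the 5. On the values themselves these ran from -0.38 (Itgam) to 0.22 (Cx3cr1). These 5 genes were picked after the values were seen, and all 36 pairs of the 9 markers ran from -0.80 to 0.96 on the deviations. Such values share the scaling of each mouse and are given as a description, with no test. The deviations of Cybb and Cd14 had a correlation of -0.80 over 12 mice, although in SPF PAT mouse 26, GF control mouse 39 and GF PAT mice 41 and 42 both lay on the same side of their group's mean.

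**Figure D3:**
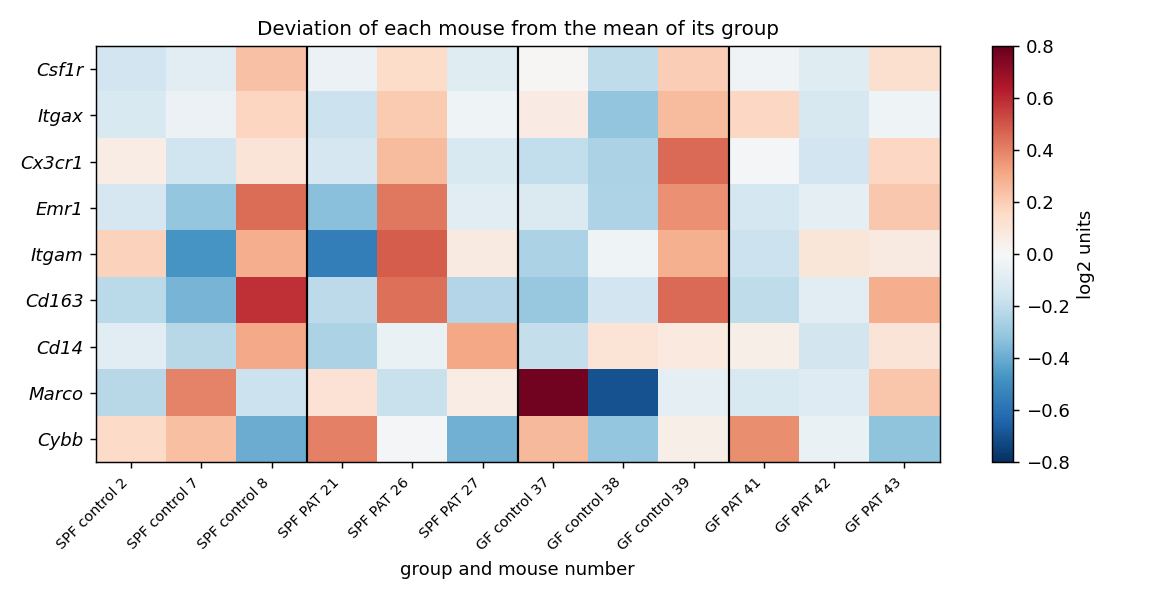
Deviation of each mouse from the mean of its group for the 9 markers, in log2 units, with red above and blue below the mean and black lines between the groups. SPF control mouse 8 and GF control mouse 39 are red from Csf1r to Cd163. In SPF control mouse 8 Cybb and Marco are blue, opposite to the other markers.

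The deviations moved with the B cell markers. Deviations of Cybb and of the log2 summed B cell markers had a correlation of 0.81 over 12 mice, against -0.81 for Itgam, -0.83 for Cd14, -0.77 for Emr1 and -0.74 for Cd163. For Csf1r, Cx3cr1 and Itgax it was -0.52, -0.58 and -0.41, and for Marco 0.44. With Ptprc, the pan-leukocyte marker CD45, the correlation of Cybb was 0.95, while those of Itgam and Cd14 were -0.76 and -0.80. With the log2 summed neutrophil markers it was 0.60 for Itgam, 0.51 for Cd163, -0.42 for Cybb, -0.65 for Marco and between -0.22 and 0.43 for the other markers, with 0.10 for Csf1r. Cybb thus varied between mice of a group with leukocyte and B cell transcripts, and the other markers but Marco varied against the B cell sum. The cause was not tested.

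For each marker the gene of the panel most like it over the 12 mice was found by Pearson correlation of the log2 values, which holds both the group differences and the spread within groups. Csf1r was most like Tyrobp, which encodes the DAP12 adaptor of myeloid receptors (r = 0.94, and 0.90 on deviations from group means). Emr1 was most like the Fc receptor gene Fcgr3 (r = 0.92, and 0.98 on deviations), and Cybb most like Tgfb1 (r = 0.98, and 0.97 on deviations). Itgam was most like Pigr, the epithelial polymeric immunoglobulin receptor (r = 0.94, and 0.89 on deviations). The others were Cx3cr1 with C1s (r = 0.84), Itgax with Il23r (0.88), Cd14 with Il13ra1 (0.88), Cd163 with Il17b (0.90) and Marco with Cd8b1 (0.84).

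Molecular partners of the markers were examined as a list of 15 genes, of which 8 had values. Between SPF control and GF control mice 1 rose and 1 fell, where 42.1% of all genes were called. Itgb2, the CD18 beta chain shared by CD11b and CD11c, was 9.05, 9.11 and 8.65 in SPF control mice 2, 7 and 8 and 8.15, 7.56 and 8.01 in GF control mice 37, 38 and 39, a rise of 1.03 (standard error 0.25, adjusted p = 0.00816). Cx3cl1, the ligand of CX3CR1, was lower in SPF control mice by 1.45-fold, a difference of -0.54 (adjusted p = 0.0113). In SPF PAT against SPF control mice Cx3cl1 rose by 0.51 (adjusted p = 0.0243), and Itgb2 differed by -0.66 (adjusted p = 0.0722). The tylosin effect on Cx3cl1 differed between SPF and GF mice by 0.78 (adjusted p = 0.0286). The other partners named did not pass. Csf1, a ligand of CSF1R, differed by -0.04 between SPF control and GF control mice (adjusted p = 0.88) and Ncf4, an oxidase subunit beside Cybb, by 0.91 (adjusted p = 0.0998). Tlr4 and Ly96, the signalling pair that receives lipopolysaccharide from CD14, differed by 0.25 and -0.11 (adjusted p = 0.209 and 0.682). Across the list the median was 0.52, against 0.08 over all genes.

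Genes for growth factors and identity factors of macrophages and dendritic cells numbered 8 with values. Between SPF control and GF control mice 3 rose and 0 fell, where 42.1% of all genes were called and 19.4% rose, and the median was 0.35. Irf4, a factor of one dendritic cell type and of plasma cells, rose by 2.44 (adjusted p = 0.00016), Irf8, which specifies another dendritic cell type and is active in B cells, by 0.65 (adjusted p = 0.000932), and Csf2rb, a receptor chain for GM-CSF, by 0.66 (adjusted p = 0.0236). Between SPF PAT and SPF control mice 2 of these 8 genes fell and 0 rose, where 26.3% of all genes were called and 12.2% fell. Irf4 fell by 1.22 (adjusted p = 0.00854) and Irf8 fell by 0.58 (adjusted p = 0.00428). Of 2 measured plasma cell markers, Prdm1 fell in the same comparison by 0.72 (adjusted p = 0.0316; median centring and quantile normalization gave 0.396 and 0.281) and Xbp1 was at 0.094, and neither passed between SPF control and GF control mice (0.41 and -0.0053). The tylosin effects on Irf4 and Irf8 differed between SPF and GF mice, by -2.15 (adjusted p = 0.00972) and -0.55 (adjusted p = 0.0289).

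Monocyte recruitment genes numbered 9 with values. Between SPF control and GF control mice 5 rose and 1 fell, where 19.4% of all genes rose and 22.7% fell, and the median was 0.60. Ccl8, a chemokine of tissue macrophages, rose by 2.47 (adjusted p = 0.000204), Ccl4 by 1.30 (adjusted p = 0.00481) and Ccl2, the main monocyte attractant, by 1.29 (adjusted p = 0.00826), and Cx3cl1 was the gene that fell. Between SPF PAT and SPF control mice Ccl8 fell by 1.96 (adjusted p = 0.00179) while Ccl2 differed by -0.91 (adjusted p = 0.0543), and the tylosin effect on Ccl8 differed between SPF and GF mice by -2.27 (adjusted p = 0.00972).

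Phagocyte receptor genes numbered 14 with values and had a median of 0.24, with 1 called between SPF control and GF control mice, below the 42.1% of all genes. It was Lilrb4, an inhibitory receptor, which rose by 1.01 (adjusted p = 0.000932), fell by 0.48 between SPF PAT and SPF control mice (adjusted p = 0.044) and has near-identical copies that its probe may not separate. Of 7 dendritic cell genes 1 rose between SPF control and GF control mice, the costimulatory ligand Cd80, by 0.78 (adjusted p = 0.0338), also below the 42.1% of all genes. None of the 7 passed between SPF PAT and SPF control mice, where 26.3% of all genes were called and 12.2% fell. The median of the 7 in that comparison was -0.57. In SPF PAT against SPF control mice the medians of the other lists were -0.02 for partners, -0.22 for growth and identity, -0.44 for recruitment and -0.16 for phagocyte receptors. In the germ-free mice 0 genes of these 5 lists passed between PAT and control, where limma called 0 of 556 genes. After median centring no gene named from these lists as risen or fallen changed sign, but the calls between SPF control and GF control mice remained only for Itgb2, Cx3cl1, Irf4 and Ccl8. Under the same centring the fall of Irf8 in SPF PAT mice was -0.23 (adjusted p = 0.427) and that of Lilrb4 was -0.13 (adjusted p = 0.673), and the difference between the effects for Irf8 was -0.0058 (adjusted p = 0.99). Irf8 passed with quantile normalization (-0.70, adjusted p = 0.00231, and -0.66 for the difference between the effects, adjusted p = 0.0253) and with scaling to total count (-0.55, adjusted p = 0.00259), so its call depended on the scaling. Quantile normalization also ended the calls of Csf2rb, Ccl2, Ccl4 and Cd80 between SPF control and GF control mice and that of Lilrb4 in SPF PAT mice. With the B cell covariate the named calls lost were Cd80 (adjusted p = 0.0704), Lilrb4 in SPF PAT mice (0.0616) and the difference between the effects for Cx3cl1 (0.0788), while Irf8 was -0.61 in SPF PAT mice (0.0027).

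T cell markers moved in the same comparisons as these lists. Of 6 measured, none at 0 in every mouse, 4 rose between SPF control and GF control mice (Cd3d, Cd3e, Cd8a and Cd247), where 19.4% of all genes rose, with a median over the 6 of 1.98. The same 4 fell between SPF PAT and SPF control mice, where 12.2% of all genes fell and the median was -1.38. Of these falls, those of Cd3d and Cd247 were lost after median centring (adjusted p = 0.0517 and 0.0547), and those of Cd3d, Cd3e and Cd247 with counts scaled to the total (0.0623, 0.0537 and 0.0722). Their summed normalized counts were 978 to 1571 in SPF control, 340 to 976 in SPF PAT, 288 to 705 in GF control and 453 to 872 in GF PAT mice. The part of T cells in the differences of the markers and lists was not tested.

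**Figure D4:**
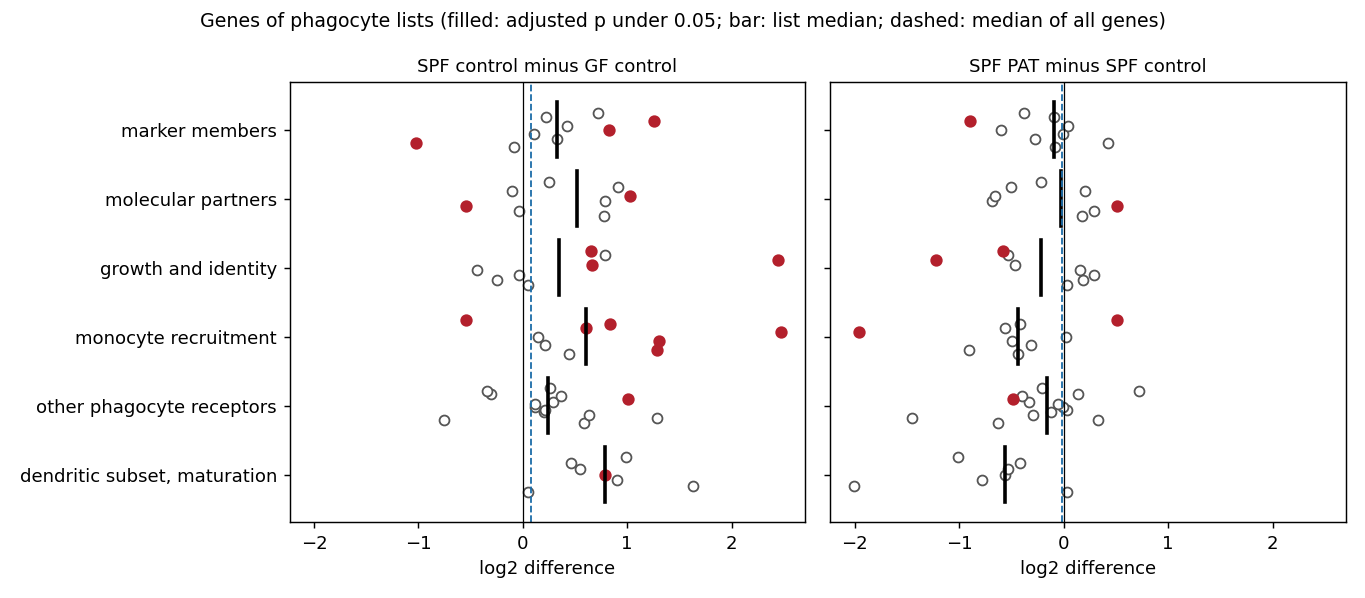
Log2 differences of single genes in the marker list and 5 companion lists for SPF control minus GF control and SPF PAT minus SPF control mice, with filled points at an adjusted p under 0.05 in limma. Irf4 and Ccl8, at 2.44 and 2.47 in the first comparison, lie beyond each of the 9 markers, of which Itgam is the highest at 1.26.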

How the data were processed

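Ileal RNA of 12 mice, 3 in each of 4 groups, was measured on the NanoString nCounter GX mouse immunology panel. Counts were normalized with DESeq2 by the authors and put on a log2 scale, and the deposited log2 values cover 556 genes and 12 mice, while 28 control entries hold no value. Each value that is not 0 (6609 of 6609) returned a whole count within 0.01 once its mouse's size factor was removed. Files name no genome build, and groups and mouse numbers come from the labels.

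Group means were compared in limma 3.58.1 (R 4.3.3; lmFit and eBayes) with 1 mean per group, all 12 mice and no filter or covariate. P-values were adjusted by the Benjamini-Hochberg method over 556 genes for each comparison, with a threshold of 0.05. Exact permutation tests (scipy 1.17.1) were used for single ratios. The markers, gene lists and tests were chosen with earlier results of these data known. All markers were named, with up to 3 genes per list and comparison by smallest p, the partners Itgb2, Csf1, Cx3cl1, Tlr4, Ly96 and Ncf4, and the gene most like each marker. Marker genes of other cell types were named after their values were seen. Alternatives were an intensity trend, only the groups compared, the methods' analysis of variance with Tukey HSD (Benjamini-Hochberg and Benjamini-Yekutieli), a mean normalized count of at least 20, median centring, quantile normalization, voom on recovered counts, scaling to total count, log2 of the normalized count plus 1, leaving out each mouse, and, added after seeing the data, summed B cell markers as a covariate. The fitting steps were tested on simulated data. Reference genes and negative controls were not used here, and 1 gene of the lists is not reported here by name.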

Additional observations from a re-analysis of the deposited data

How the results depend on the processing

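Between SPF control and GF control mice 3 markers were called, 1 with Tukey HSD and Benjamini-Hochberg adjustment (Itgam), 0 with Benjamini-Yekutieli, 1 with median centring (Cd163), 5 with the B cell covariate (Csf1r, Itgam, Cd163, Cybb and Emr1), and 1 to 4 with a mouse left out. Between SPF PAT and SPF control mice 1 was called, and 0 with only the groups compared, with Tukey HSD under both adjustments, with median centring and with quantile normalization, and 0 to 1 with a mouse left out. For the difference between the tylosin effects 0 were called, 1 with the B cell covariate (Itgam) and 0 to 1 with a mouse left out (Cybb or Marco). The counts of 0 between GF PAT and GF control mice and between SPF PAT and either germ-free group held under each alternative. The share of all genes called under each alternative is not given here, so these counts are not set against the panel.

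Directions turned for small differences. Between SPF control and GF control mice, median centring gave -0.12 for Csf1r, -0.33 for Cx3cr1, -0.22 for Itgax and -0.013 for Emr1, quantile normalization gave -0.33 for Cx3cr1 and -0.16 for Itgax, and the B cell covariate gave 0.10 for Cd14. Between SPF PAT and SPF control mice, median centring gave 0.077 for Csf1r, 0.35 for Cx3cr1, 0.27 for Itgax and 0.27 for Cd14, quantile normalization gave 0.36 for Cx3cr1, 0.18 for Itgax, 0.19 for Cd14 and 0.18 for Marco, scaling to total count gave 0.022 for Cx3cr1, and the B cell covariate gave -0.20 for Emr1. With a mouse left out, the differences between SPF control and GF control mice ran from -0.23 to 0.030 for Cd14 and from -0.020 to 0.33 for Cx3cr1, and those between SPF PAT and SPF control mice from -0.24 to 0.071 for Cd14, -0.14 to 0.057 for Cx3cr1 and -0.17 to 0.26 for Emr1. The cause was not tested. Median centring moved the median of all genes by -0.44 between SPF control and GF control mice and by 0.36 between SPF PAT and SPF control mice, quantile normalization by -0.23 and 0.16. No paired analysis was possible because the groups hold different mice, each with its own mouse number in the labels, and the replicate numbers were given here in accession order. The 95% intervals bound what 3 mice per group can show, and the low counts of Marco limit it further.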
